A study of Mus musculus with 4 samples.

Results

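ABC transporters are a family of membrane pumps that share an ATP-binding cassette, and their gene symbols give the subfamily by the letter after Abc. The genes described here were those of mouse array probe sets that GEO's platform annotation assigned to exactly 1 symbol of the form Abc, a letter from a to g and a number. The rule gave 92 probe sets of 45 genes, out of 34945 probe sets with 1 symbol and 18193 genes in all. Subfamily A had 14 genes, B 8, C 10, D 3, E 1, F 3 and G 6. Other members of the superfamily whose symbols have another form, such as Tap1, Tap2 and Cftr, lay outside the rule.

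An ABC transporter binds and hydrolyses ATP on a pair of cassettes, and the energy moves a substrate through membrane-spanning segments. Subfamily A and part of G move sterols and phospholipids, B and C export drugs, peptides, bile salts and conjugates of glutathione, and D serves peroxisomes and lysosomes. E and F proteins have the cassettes but no membrane segments, and act on ribosomes and translation. In bone marrow the family is best known for Abcg2 and the P-glycoprotein genes Abcb1a and Abcb1b, whose products pump out the dyes by which stem cells are recognised in flow cytometry, and for the sterol exporters Abca1 and Abcg1.

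Gene expression was measured on 1 single-colour Affymetrix array for each of 4 cell populations sorted from mouse bone marrow as nuclear donors for cloning. Granulocytes were taken by their high granularity and bright Gr-1 label. All others came from a c-Kit enriched fraction without the lineage antigens (Gr-1, CD11b, Ter119, B220 and the T cell antigens CD3, CD4 and CD8), and were divided into haematopoietic progenitor cells (HPC, c-Kit positive without Sca-1), long-term repopulating stem cells (LT-HSC, c-Kit and Sca-1 positive without CD34) and short-term repopulating stem cells (ST-HSC, c-Kit, Sca-1 and CD34 positive). RNA of 50 to 200 cells per population was amplified linearly in 2 rounds. No genetic modification or treatment of the animals is given in the labels, nor their strain, sex or age. With 1 array per population no difference has a replicate check, the number of arrays limits the precision, and no p-value is given.

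Signals were used as deposited, and those under a floor of 120.1, the median of all values, were treated as unmeasured. This left 48.7% to 52.5% of an array's probe sets above it. A gene was represented by its brightest probe set, the one with the highest mean log2 signal over the 4 arrays. It was called 2-fold higher or lower in granulocytes only if it differed at least 2-fold from each of the other 3 arrays, in HPC only if it did so from both stem cell arrays, and in LT-HSC if it did so from ST-HSC. Folds are given for the nearest of the arrays compared, and as at least N-fold where a side lay at the floor. The spread between probe sets of the same gene had an SD of 0.85 log2 units when granulocytes were compared, 0.57 when HPC were and 0.64 between the stem cell arrays, which covers neither sorting nor amplification. The ratio of 3′ to 5′ signal for actin, which rises as amplified RNA is shortened, was 5.75 for granulocytes against 12.2 (HPC), 14.6 (LT-HSC) and 16.1 (ST-HSC). For Gapdh it was 12.4 against 17.8, 14.9 and 12.4. The part of RNA length in the differences below was not tested. Granulocyte markers lay above the floor in 9 of 9 cases for granulocytes, 2 for HPC, 6 for LT-HSC and 2 for ST-HSC. Their summed signals were 423450, 576, 22747 and 639. The LT-HSC array carried more than the ST-HSC array of 6 of them, S100a8, S100a9, Ltf, Lcn2, Camp and Ngp. It did not for Mmp8 (77.4 against 84.6), Mmp9 (65.8 against 170) and Cxcr2 (34.3 against 28.1, both under the floor). For stem cell markers the counts were 2, 8, 9 and 9 of 9, with summed signals of 734, 13574, 45446 and 28613. Of the antigens used for sorting, Cd34 had 17.2 in granulocytes, against 5190 (HPC), 2384 (LT-HSC) and 9778 (ST-HSC), so its transcript was measured in LT-HSC, a gate without the protein. CD11b (Itgam) had 2570 in granulocytes and at most 34.8 elsewhere. Kit had 583 in granulocytes, against 3011, 5416 and 3144, and Ptprc 21001 against 9845, 7066 and 7178. Of the T cell antigens, Cd8a had 164 in granulocytes, against 351 (HPC), 320 (LT-HSC) and 158 (ST-HSC). Cd3e had 152 in granulocytes and 153, 40.2 and 155, and Cd4 was under the floor on all arrays. Transcripts of Cd8a and Cd3e thus passed the floor in populations sorted without these antigens.

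The granulocyte array had 23 of the 45 genes above the floor, the HPC array 27, the LT-HSC array 25 and the ST-HSC array 26. In granulocytes this was 51.1% of the members, against 63.4% of all genes. Of the 45, 13 genes were above it on all arrays, 36 on at least 1 and 9 on none. The share above it on all arrays was 28.9% of the members, against 44.4% of all genes, while the shares above it on at least 1 array were 80.0% and 79.2%. The 36 measured genes were brightest on the granulocyte array in 12 cases, on that of HPC in 12, of LT-HSC in 9 and of ST-HSC in 3. At least 1 of the comparisons showed a 2-fold difference for 15 genes. The 21 others that were measured stayed within it. These counts and those of the brightest array were not made over all genes, so they do not show whether the family differs from the rest.

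**Figure D1:**
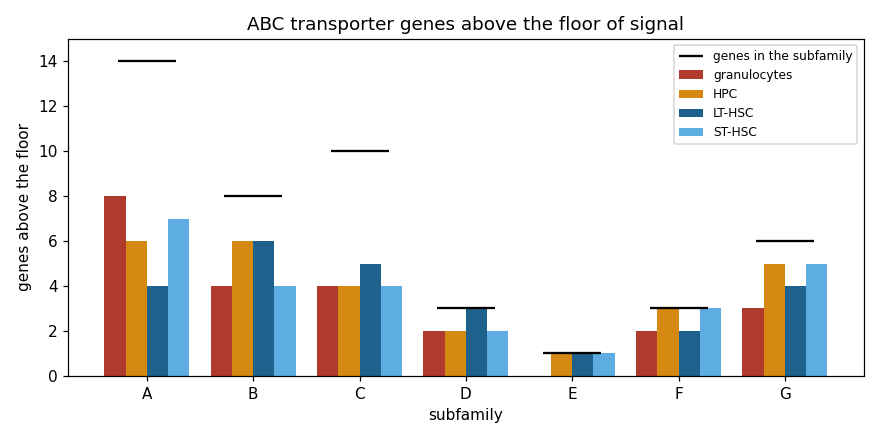
Number of ABC transporter genes (y axis) above the floor of 120.1 in each subfamily (x axis), with a bar for each population and a black line at the number of genes in the subfamily. In subfamily A 8, 6, 4 and 7 of 14 genes lay above it in granulocytes, HPC, LT-HSC and ST-HSC, whereas in F 2, 3, 2 and 3 of 3 did.

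Granulocytes, the mature end of the myeloid lineage, were set against the stem and progenitor populations. Abca13, Abcd2 and Abca7 were higher in granulocytes. Abcg2, Abce1, Abcc1, Abcb1b, Abcd3, Abcb6, Abca1 and Abcc4 were lower. The 8 lower genes included the P-glycoprotein gene Abcb1b, the dye pump gene Abcg2 and the glutathione conjugate exporter Abcc1, 3 members that are known for the export of drugs. In the subfamilies of these 3, 2 of 8 genes of B, 2 of 10 of C and 1 of 6 of G were lower. A gene under or near the floor in HPC, LT-HSC or ST-HSC could not be called lower. These counts thus do not show that the remaining genes were unchanged. The 3 higher genes were 6.67% of the 45, beside 8.9% of all genes, and the 8 lower genes were 17.8%, beside 12.7% of all genes. Both shares lay near those of the whole array, so the family as a whole is not set apart by these counts. The median log2 difference from the mean of the other arrays was −0.01 over the 45 genes and 0 over all genes. With the arrays scaled to their spiked hybridization controls, whose geometric mean signal was 7204 in granulocytes against 4478 to 5069 elsewhere, the members divided into 2 higher and 10 lower, with Abca7 no longer called and Abcf1 and Abcg1 added to the lower genes. Oocyte and cumulus cell markers lay above the floor in 6 of 10 cases for granulocytes, 3 for HPC, 3 for LT-HSC and 1 for ST-HSC, with summed signals of 9017, 1196, 1358 and 709, of which Inhba held 6566 in granulocytes. Monocyte and macrophage markers had summed signals of 16811 in granulocytes, against 17486 (HPC), 1342 (LT-HSC) and 1701 (ST-HSC). Csf1r held 13089 of the sum in granulocytes and 11928 of that in HPC. Of the 12 markers 2 were called higher in granulocytes and 0 lower. These were Adgre1, 3.70-fold, and Cd68, 2.19-fold above the nearest array, whereas Ly86 had 552.5 in granulocytes against 4155 in HPC. The part of such cells was not tested. In whole-population RNA, fewer cells that express a gene and less of its RNA per cell cannot be told apart.

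**Figure D2:**
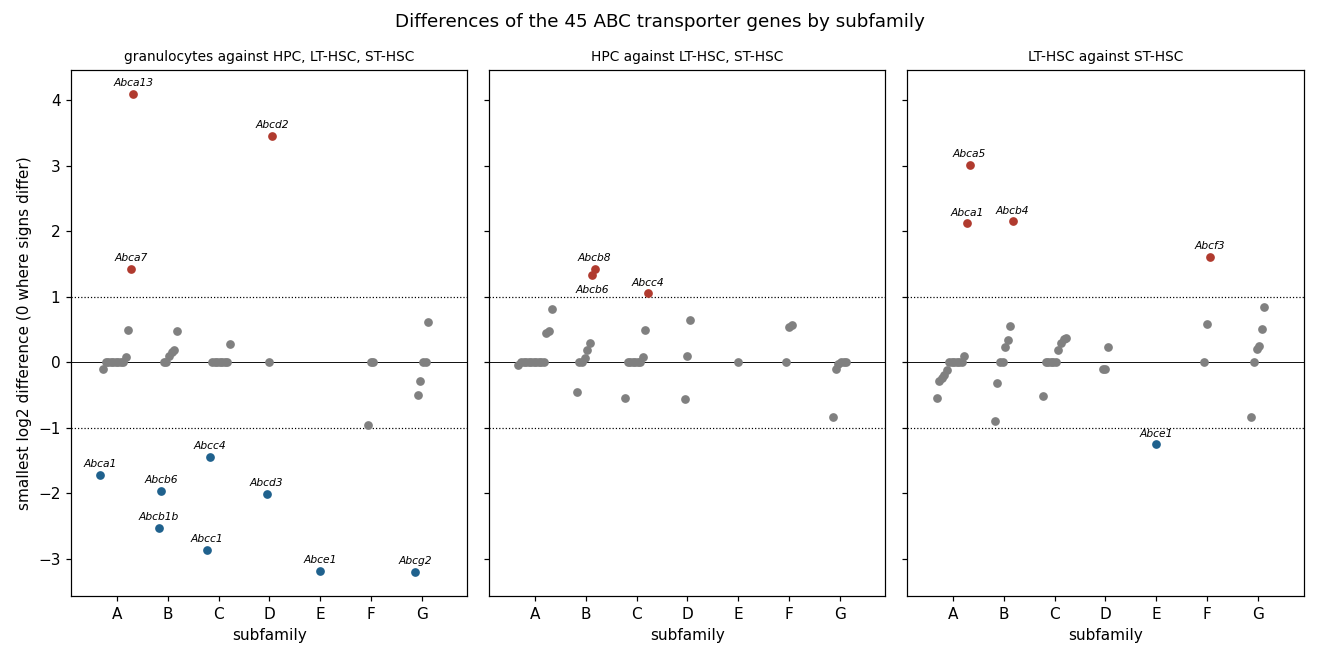
Smallest log2 difference (y axis) of each of the 45 genes by subfamily (x axis), for granulocytes against the other 3 populations, HPC against both stem cell populations and LT-HSC against ST-HSC. Each point is a gene, 0 stands for differences of mixed sign or unmeasured genes, dotted lines mark 2-fold, red and blue points are the named genes beyond it. The granulocyte panel runs from 4.10 for Abca13 to −3.20 for Abcg2.

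Among the lipid transporters of subfamily A, Abca13 (probe set 1446715_at), which encodes one of the longest proteins of the family, had a signal of 2059 in granulocytes, against 40.2 in HPC and, among stem cells, 37.2 in LT-HSC and 67.1 in ST-HSC. It was thus measured in granulocytes alone, at least 17.1-fold higher. Its second probe set had the same pattern, with 938 in granulocytes and at most 40 elsewhere. Abca7 (1419238_at), a phospholipid transporter related to Abca1 that is known to affect phagocytosis, had 3544 in granulocytes, against 1197 in HPC and, among stem cells, 1318 in LT-HSC and 1234 in ST-HSC. It was bright everywhere, with the other populations close together and granulocytes 2.69-fold above the nearest of them. Scaled to the hybridization controls, the log2 difference of Abca7 was 0.74 and so under 2-fold. Abca1 (1421840_at), which exports cholesterol and phospholipid to apolipoprotein A-I, had 158 in granulocytes, just above the floor, against 1074 (HPC), 2253 (LT-HSC) and 519 (ST-HSC), a 3.29-fold lower signal. Only 1 of its 3 probe sets carried this signal, and with the median over probe sets, or the first by name, the difference was 0.

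The sterol transporters of subfamily G were called in none of the comparisons. Abcg1, which passes cholesterol to high-density lipoprotein, had 1404 in granulocytes, against 1981 (HPC), 2440 (LT-HSC) and 2128 (ST-HSC), all populations within 1.74-fold. Its second probe set, 1455221_at, had 807.5 in granulocytes, against 825 (HPC), 402 (LT-HSC) and 1050 (ST-HSC). By that probe set LT-HSC had the lowest signal, whereas by the one used it had the highest. Abcg4, a relative of Abcg1 known from brain, had 451 in granulocytes and 252, 295 and 248 elsewhere. Abcg5 and Abcg8, whose products form the heterodimer that excretes plant sterols in liver and gut, were dim. Abcg5 reached 72.3 at most, under the floor, and Abcg8 had 23.8 in granulocytes against 147, 212 and 149.

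Several drug exporters were lower in granulocytes. Abcg2 (1422906_at), the breast cancer resistance protein gene, had 104 in granulocytes, against 1102 (HPC), 3548 (LT-HSC) and 1968 (ST-HSC). The granulocyte signal was under the floor, which put it at least 9.18-fold below HPC, at least 29.5-fold below LT-HSC and at least 16.4-fold below ST-HSC. Abcb1b (1418872_at), of the pair of mouse genes that correspond to human ABCB1, had 3.6 in granulocytes, while HPC had 1584, LT-HSC 695 and ST-HSC 1296, so it was under the floor in granulocytes and at least 5.79-fold lower. Its other probe set was dim throughout, at 199 in granulocytes against 66.4, 50.4 and 111, and with the median over both the log2 difference was −0.90. Its partner gene Abcb1a lay above the floor only in LT-HSC, at 175, against 14.7 in granulocytes, 55.3 in HPC and 48.0 in ST-HSC. Abcc1 (1452233_at), which exports glutathione conjugates and leukotriene C4, had 692 in granulocytes, against 6859, 6471 and 5024, and was 7.26-fold lower. The stem and progenitor populations lay close together for it. A dimmer probe set of Abcc1 had 84.9 in granulocytes and 126 to 192 elsewhere, and with this first one by name the log2 difference was −0.07. Abcc4 (1443870_at), an exporter of cyclic nucleotides and prostanoids, had 203 in granulocytes, against 1460 in HPC and, among stem cells, 703 in LT-HSC and 553 in ST-HSC. The granulocyte signal was 2.72-fold lower than in ST-HSC, the nearest population.

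Abcc5, another exporter of cyclic nucleotides, did not follow Abcc1 and Abcc4. Its signal was 1416 in granulocytes, against 911 (HPC), 820 (LT-HSC) and 1165 (ST-HSC), a range of 1.73-fold.

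Peroxisomal transporters of subfamily D ran in opposite directions. Abcd2 (1438431_at), which carries very long-chain fatty acyl groups into peroxisomes, had 2422 in granulocytes, against 220 (HPC), 141 (LT-HSC) and 9.3 (ST-HSC). Granulocytes stood 3.46 log2 units above HPC, and the other 2 of its 4 probe sets that were measured had the same direction, at 220 and 223 in granulocytes against 3.5 to 66.2 elsewhere. The log2 difference was 0.88 with the median over probe sets and 0.87 with the first by name, both under 2-fold. Abcd3 (1416679_at), an abundant peroxisomal membrane protein, had 808 in granulocytes, while HPC had 3735, LT-HSC 3253 and ST-HSC 3509, a 4.02-fold lower signal. The 3 other populations differed little for Abcd3. For Abcd2 HPC and LT-HSC were 1.56-fold apart, and ST-HSC was under the floor. Abcd4, which works in the export of cobalamin from lysosomes, had 21.3 in granulocytes and 19.8 in HPC, under the floor, and 177 and 190 in LT-HSC and ST-HSC. Its second probe set gave 23.2, 26.6, 128 and 171, so both probe sets were above the floor in the stem cell populations alone.

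Mitochondrial members of subfamily B differed among themselves. Abcb6 (1422524_at), which is linked to porphyrin transport, had 83.2 in granulocytes, while HPC had 1376, LT-HSC 547 and ST-HSC 468, and was under the floor in granulocytes and at least 3.90-fold lower. Abcb10, an inner membrane protein needed for haem synthesis in red cell precursors, had 691 in granulocytes, against 379 in HPC and, among stem cells, 518 in LT-HSC and 646 in ST-HSC, within 1.82-fold. Erythroid markers were dim on all arrays, with 2 of 5 above the floor for granulocytes, 2 for HPC, 1 for LT-HSC and 0 for ST-HSC, and summed signals of 589, 717, 344 and 292.

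Members without membrane segments differed among themselves. Abce1 (1416015_s_at), which splits ribosomes after termination, had 92.5 in granulocytes, against 2432 in HPC and, among stem cells, 1089 in LT-HSC and 2588 in ST-HSC, and was under the floor in granulocytes and at least 9.07-fold lower. A second probe set gave 92.9 in granulocytes and 1222, 822 and 2398. Abcf1, which binds the initiation factor eIF2, had 1789 in granulocytes against 4299, 5209 and 3472, 1.94-fold lower and so just under the threshold. Of its 6 probe sets 3 carry the suffix _s_at, and without these Abcf1 was called lower by 1426921_at, at 116 in granulocytes against 682, 875 and 515. Of the 5 probe sets of Abcf1 beside the brightest, 2 had its direction in granulocytes and 2 the opposite. The opposite ones were 1452429_s_at, at 343 in granulocytes against 281, 118 and 187, and 1427444_at, at 144 against 20.1, 46.7 and 110. Abcf3 had 479 in granulocytes, against 1123 (HPC), 758 (LT-HSC) and 249 (ST-HSC), so by this probe set granulocytes lay between the populations. By another, 1426748_s_at, granulocytes were lowest, at 221 against 473, 561 and 552. By 1452177_at granulocytes and ST-HSC were both under the floor, at 25.1 and 44.0. Abcf2 had 54.0 in granulocytes and 175, 111 and 120, near the floor throughout.

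**Figure D3:**
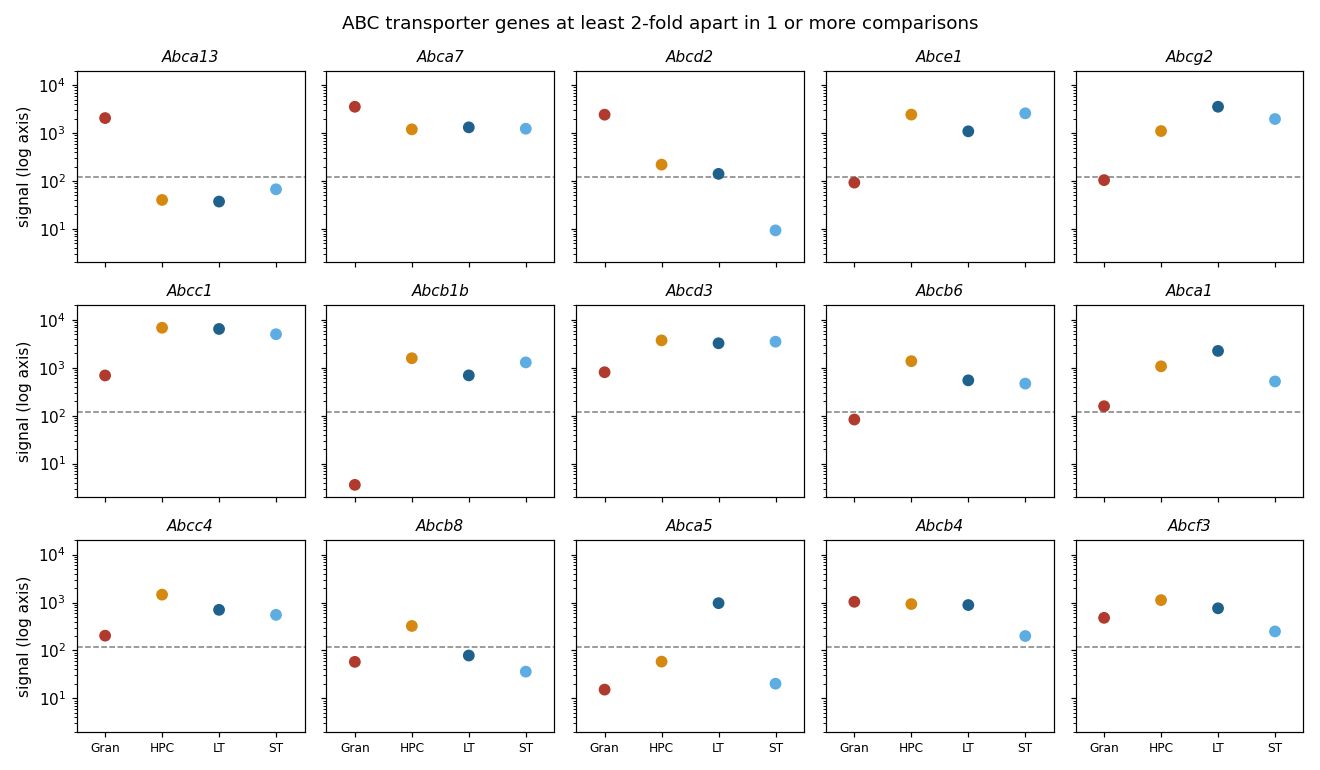
Signals (y axis, log scale) of the 15 genes at least 2-fold apart in 1 or more comparisons, with a point for the single array of granulocytes (Gran), HPC, LT-HSC (LT) and ST-HSC (ST) and a dashed line at the floor of 120.1. Abca13, Abca7 and Abcd2 have their highest point in granulocytes, while Abce1, Abcg2, Abcb1b and Abcb6 lie under the floor there.

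Promoter sequences are shown for the members with the largest differences in granulocytes in each direction that have a single start in RefSeq's table, and for the start of Abcg2 that holds a cAMP response element. Each is the 250 bases before the annotated start, 5′ to 3′ on the gene's strand, with capitals for matches on either strand to the CCAAT box, the GC box (GGGCGG), the cAMP response element (TGACGTCA), the TATA box (TATAAA), the E-box (CACGTG), the motif of GATA factors (AGATAA) or the motif of the PU.1 type (GAGGAAGT).
Abca13 (GRCm38.p6, chr11:9191692-9191941, plus strand): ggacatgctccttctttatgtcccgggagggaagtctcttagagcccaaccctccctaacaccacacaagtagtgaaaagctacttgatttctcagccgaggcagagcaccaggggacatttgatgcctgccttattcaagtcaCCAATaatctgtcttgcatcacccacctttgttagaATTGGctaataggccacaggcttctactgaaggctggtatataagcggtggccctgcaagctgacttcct
Abca7 (GRCm38.p6, chr10:79996244-79996493, plus strand): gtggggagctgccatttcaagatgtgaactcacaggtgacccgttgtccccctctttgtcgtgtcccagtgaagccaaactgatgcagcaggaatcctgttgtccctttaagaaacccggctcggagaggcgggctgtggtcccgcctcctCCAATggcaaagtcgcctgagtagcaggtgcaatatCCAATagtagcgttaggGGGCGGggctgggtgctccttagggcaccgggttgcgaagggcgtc
Abce1 (GRCm38.p6, chr8:79711741-79711990, minus strand): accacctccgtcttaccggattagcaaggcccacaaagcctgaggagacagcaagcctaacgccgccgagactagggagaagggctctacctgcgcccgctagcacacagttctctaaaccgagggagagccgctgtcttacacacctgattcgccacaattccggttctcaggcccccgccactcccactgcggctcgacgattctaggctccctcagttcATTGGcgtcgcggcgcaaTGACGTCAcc
Abcb1b (GRCm38.p6, chr5:8797897-8798146, plus strand): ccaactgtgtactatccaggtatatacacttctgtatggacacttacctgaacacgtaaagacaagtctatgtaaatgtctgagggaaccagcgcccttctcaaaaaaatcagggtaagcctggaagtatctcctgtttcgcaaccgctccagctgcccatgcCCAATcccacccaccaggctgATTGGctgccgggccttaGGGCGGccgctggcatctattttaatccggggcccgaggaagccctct
Abcg2 (GRCm38.p6, chr6:58640296-58640545, plus strand): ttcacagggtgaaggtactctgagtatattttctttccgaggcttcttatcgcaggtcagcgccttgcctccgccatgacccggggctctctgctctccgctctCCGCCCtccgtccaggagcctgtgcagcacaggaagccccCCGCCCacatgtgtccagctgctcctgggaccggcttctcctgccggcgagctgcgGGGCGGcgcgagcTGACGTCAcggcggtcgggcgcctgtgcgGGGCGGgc

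The table held a start for 35 of the 45 genes and 42 starts in all. Among the windows shown, the CCAAT box was found in those of Abca13, Abca7, Abce1 and Abcb1b, 2 of them higher and 2 lower in granulocytes. Over all members it was found in 12 of the 35 genes, among them Abcb6, which was also lower. The box stood in 28.6% of the members' windows and in 33.8% of the 32851 windows of the table. The GC box GGGCGG was found in 17 of the 35 genes, in 47.6% of the members' windows and in 32.7% of all. Among the windows shown it was in those of Abca7, Abcb1b and Abcg2. The cAMP response element TGACGTCA stood in Abce1 and in 1 of the 3 starts of Abcg2, the start shown because it holds this element. These were 2 of the 42 windows of members, or 4.76%, beside 1.55% of all. TATAAA was in 11.9% of the members' windows and 12.4% of all, the E-box CACGTG in 9.52% and 6.02%, the GATA motif AGATAA in 11.9% and 9.99% and the PU.1-type motif GAGGAAGT in 4.76% and 2.44%. No matches overlapped in the windows shown. A match describes the letters of these windows and not a bound site.

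HPC were set against both stem cell populations. Abcb6, Abcb8 and Abcc4 were at least 2-fold higher in HPC, and no member was 2-fold lower. The 3 higher genes were 6.67% of the members, beside 2.12% of all genes, and the count of 0 stood beside 2.69% of all genes. The share of higher genes rests on 3 genes. Abcb6 had 1376 in HPC, against 547 in LT-HSC and 468 in ST-HSC, 2.51-fold higher. Abcb8 (1422015_a_at), a mitochondrial transporter whose signal in HPC was dimmer than the naming rule asked and which is named because the count was small, had 324 in HPC, against 78.3 in LT-HSC and 36.1 in ST-HSC, at least 2.70-fold higher. Its other probe set stayed under the floor, and with the median over both the log2 difference was 0.72, under 2-fold. Abcc4 had 1460 in HPC against 703 and 553, just past the threshold at 2.08-fold. HPC thus had the highest signal of all 4 populations for each of these 3 genes.

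Abcg2 was lower in HPC than in both stem cell populations but not 2-fold below both. Its 1102 in HPC stood 3.22-fold below the 3548 of LT-HSC and 1.78-fold below the 1968 of ST-HSC. Abca1 in HPC, at 1074, lay between LT-HSC, at 2253, and ST-HSC, at 519. Abcc1, Abcd3 and Abca7 were within 1.37-fold between HPC and either stem cell population. Monocyte and macrophage markers had summed signals of 17486 in HPC against 1342 in LT-HSC and 1701 in ST-HSC, with 5, 4 and 5 of 12 above the floor. Of these markers Csf1r, the receptor of the macrophage growth factor, was 22.8-fold higher in HPC than in the nearer stem cell array, Ly86 11.7-fold and Cd68 2.03-fold. Marco, Mertk, Ms4a7, C1qa, C1qb and C1qc were under the floor on all arrays. Megakaryocyte and platelet markers had sums of 2806 in HPC against 3612 in LT-HSC and 4185 in ST-HSC, with 5, 6 and 8 of 8 above the floor. Basophil, mast cell and eosinophil markers had sums of 2820 (HPC), 800 (LT-HSC) and 641 (ST-HSC), lymphoid markers 4054, 4372 and 1727, and stromal markers 4849, 1824 and 2738. Pdgfrb held 3899 of the stromal sum in HPC, and Cd79b held 1942 of the lymphoid sum in HPC and 3562 in LT-HSC. Called higher in HPC were 2 of the 8 basophil, mast cell and eosinophil markers, 0 of 5 lymphoid and 1 of 8 stromal markers, and none was lower. The part of such cells in the HPC differences was not tested.

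LT-HSC were set against ST-HSC, the stem cell gate with CD34. Abca5, Abcb4, Abca1 and Abcf3 were at least 2-fold higher in LT-HSC, and Abce1 was lower. The 4 higher genes were 8.89% of the members, beside 7.28% of all genes, and the single lower gene was 2.22%, beside 5.41% of all genes. These shares, too, were near those of the whole array.

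Abca5 (1434474_at), a transporter of lysosomes and late endosomes, had 970 in LT-HSC against 20.2 in ST-HSC, at least 8.07-fold higher. It was under the floor in granulocytes and HPC as well, at 15.2 and 58.4, so LT-HSC was the only population above it with this probe set. A second probe set had 362 in LT-HSC against 186 in ST-HSC, with 76.9 in granulocytes and 101 in HPC. With an offset of 50 in place of the floor the second set was chosen, and the log2 difference was 0.80. Abca1 had 2253 in LT-HSC and 519 in ST-HSC, 4.34-fold higher by its single bright probe set. With the median over probe sets or the first by name the difference was 0. Abcb4 (1449818_at), which flips phosphatidylcholine into bile in the liver, had 886 in LT-HSC and 200 in ST-HSC, 4.43-fold higher. HPC and granulocytes, at 929 and 1036, resembled LT-HSC, so ST-HSC was the population that stood apart. Abcf3 had 758 in LT-HSC and 249 in ST-HSC, 3.05-fold higher, and by probe set 1452177_at it had 249 in LT-HSC and 44.0 in ST-HSC, in the same direction. Its remaining probe set, 1426748_s_at, was level, at 561 in LT-HSC and 552 in ST-HSC. Abce1 had 1089 in LT-HSC and 2588 in ST-HSC, 2.38-fold lower. A second probe set of Abce1 gave 822 and 2398, while another, dimmer one gave 151 and 122, in the other direction.

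Beside these differences stand the granulocyte transcripts of the LT-HSC array, where 6 of the 9 granulocyte markers were higher than in ST-HSC. For Abca5 the granulocyte signal of 15.2 was under the floor, as was that of ST-HSC. For Abca1 the granulocyte signal of 158 was below those of LT-HSC and ST-HSC. For Abcf3 the granulocyte signal of 479 lay between the 758 of LT-HSC and the 249 of ST-HSC by the probe set used. By 1426748_s_at it was 221, below both stem cell arrays. For Abcb4 the granulocyte signal of 1036 was above those of both stem cell arrays. The part of granulocyte transcripts in the LT-HSC differences was not tested for any of these genes. Abcd2, bright in granulocytes, had 141 in LT-HSC, near the floor, against 9.3 in ST-HSC, under it, at least 1.17-fold higher. In HPC Abcd2 had 220, above both. Abca13 was under the floor in both stem cell arrays.

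Abcg2 had its highest signal in LT-HSC, at 3548 against 1968 in ST-HSC. The difference stayed under 2-fold, and passed it with arrays scaled to the hybridization controls. Abcb1b ran the other way, at 695 in LT-HSC against 1296 in ST-HSC, 1.87-fold lower, and passed 2-fold with arrays at an equal 75th percentile. Abcc1 and Abcd3 were within 1.29-fold.

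The other members were called in none of the comparisons. Abca3, which fills the surfactant bodies of the lung, had 512 in granulocytes, while HPC had 1131, LT-HSC 554 and ST-HSC 813, so HPC had the highest signal, 2.21-fold above granulocytes and 2.04-fold above LT-HSC but under 2-fold above ST-HSC. Another of its probe sets had 711 in ST-HSC against 99.1 to 129 elsewhere. Abca12, Abca14, Abca8a, Abca8b, Abca9, Abcb11, Abcb9, Abcc10, Abcc3, Abcc8 and Abcg3 lay above the floor on at least 1 array, with highest signals from 145 for Abca8a to 215 for Abcg3. Among them are the bile salt pump gene Abcb11, the lysosomal peptide transporter gene Abcb9 and the liver exporter gene Abcc3. Abcc3 was above the floor in the stem cell populations alone, at 200 in LT-HSC and 175 in ST-HSC, against 29.5 in granulocytes and 70.9 in HPC. Abca16, Abca2, Abca4, Abca6, Abcc12, Abcc2, Abcc6, Abcc9 and Abcg5 were under the floor on all 4 arrays, with highest signals from 34.9 to 108. They include Abca4, known from photoreceptors, Abcc2 and Abcc6, known from liver, and Abcc9, a subunit of potassium channels.

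The genes measured were also counted by subfamily. Of all genes on the array, 79.2% were above the floor on at least 1 array and 44.4% on all 4. Of 14 genes of A, 10 were above the floor somewhere and 3 everywhere. Of 10 genes of C, 6 were above it somewhere and 3 everywhere. All 8 genes of B, all 3 of D, the 1 of E, all 3 of F and 5 of the 6 of G were above it somewhere. In granulocytes, subfamily A had 2 higher genes and 1 lower, B and C had 2 lower each, D had 1 in each direction, and E and G had 1 lower each. F had none. The median log2 difference of granulocytes from the mean of the others was 0 for A, 0.06 for B, −0.01 for C, −0.41 for D, −3.98 for E with its single gene, −0.32 for F and −0.24 for G. No test between subfamilies was made, since each holds few genes and each population a single array.

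Some members are neighbours in the genome, with no other protein-coding gene between them in RefSeq's GRCm38.p6 annotation. On chromosome 5 Abcb1a, Abcb1b and Abcb4 lie side by side, and their signals differed: Abcb4 was bright in granulocytes, where both P-glycoprotein genes were under the floor by the probe sets used, and dimmest in ST-HSC, where Abcb1b had 1296. On chromosome 11 Abca8b, Abca8a, Abca9, Abca6 and Abca5 form a row. Only Abca5 of this row had a signal above 213, and only in LT-HSC. Abcg5 and Abcg8 are neighbours on chromosome 17, and both were dim.

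**Figure D4:**
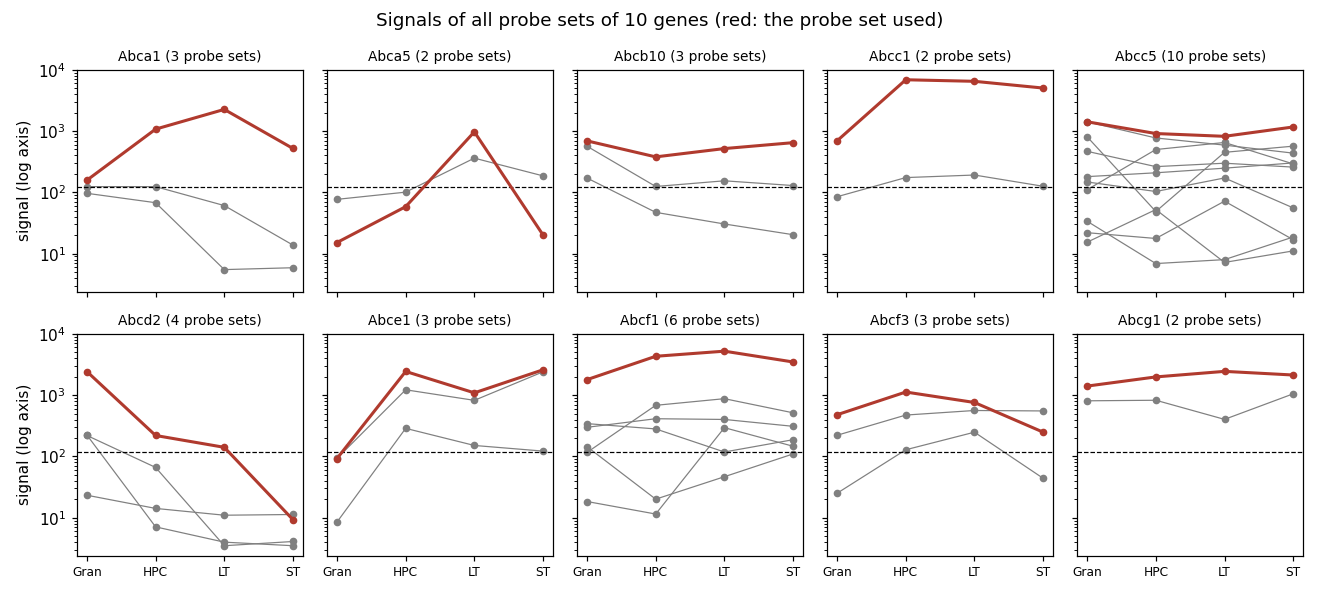
Signals (y axis, log scale) of all probe sets of 10 genes with several, across granulocytes (Gran), HPC, LT-HSC (LT) and ST-HSC (ST). Each line is a probe set, the red one has the highest mean log2 signal and was used, and the dashed line is the floor of 120.1. The lines of Abcd2 share 1 direction wherever they pass the floor, whereas those of Abca1 and Abcc5 do not.

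Of the 45 genes, 26 had several probe sets and 19 had 1. Abcb1a and Abcb1b are close paralogs, as are Abca8a and Abca8b, and a suffix _s_at, as for Abce1, marks probes that several transcripts may share. How far such probes bound other transcripts was not tested. Abcg2, Abcd3 and Abcb6 were among the called genes for which no second measured probe set exists, Abcd3 having a second one that stayed under the floor.

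Genes that work with these transporters were listed by pathway, and they are counted by the same rule. Each count stands beside the share of all genes called the same way, which in HPC was 2.12% higher and 2.69% lower and in LT-HSC 7.28% higher and 5.41% lower. Of the other ABC genes, Tap1, which moves peptides into the endoplasmic reticulum, had 2049 in granulocytes, against 3355 in HPC and, among stem cells, 3213 in LT-HSC and 1299 in ST-HSC. Its partner Tap2 had 873 in granulocytes and 562, 1431 and 710, and the chloride channel gene Cftr was under the floor everywhere. Both Tap1 and Tap2 were 2-fold higher in LT-HSC than in ST-HSC, and none of the 3 was called in granulocytes or HPC.

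Sterol genes had 4 of 14 lower in granulocytes and none higher, beside 12.7% lower and 8.9% higher of all genes, with a median log2 difference of −0.87, against 0 over all genes. Sqle, a cholesterol synthesis enzyme, had 105 in granulocytes, against 1117 (HPC), 3477 (LT-HSC) and 1017 (ST-HSC). Scap, the escort of the sterol-sensing factor SREBP, had 18.8 in granulocytes and 1544, 1690 and 1460. Insig1 (2002 in granulocytes and 1435 to 3510 elsewhere) and Npc1 (653 in granulocytes and 527 to 1511 elsewhere) were within the range of the other arrays. In LT-HSC 3 of the 14 were higher than in ST-HSC, beside 7.28% of all genes, and none lower, with a median of 0.76, and none was called in HPC.

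Haem and iron-sulfur genes had 4 of 16 higher and 5 lower in granulocytes (all genes 8.9% and 12.7%), with a median of 0.28. Alas1, the first enzyme of haem synthesis outside red cells, had 11592 in granulocytes, while HPC had 2523, LT-HSC 859 and ST-HSC 913. Alad, the next enzyme, had 31.0 in granulocytes and 2133, 1988 and 3245, so the first steps of the pathway ran in opposite directions. Slc25a28, a mitochondrial iron carrier, had 2190 in granulocytes and 2697 to 3325 elsewhere, and the erythroid form Alas2 was under the floor on every array. In HPC 1 was higher and none lower, and in LT-HSC none was higher and 1 lower.

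Ribosome recycling and translation genes had 6 of 13 lower and none higher in granulocytes (all genes 12.7% and 8.9%), with a median of −1.16. Eif2ak4, the kinase that senses amino acid shortage, had 106 in granulocytes, against 2090 in HPC and, among stem cells, 1987 in LT-HSC and 3808 in ST-HSC. Eif2s3x, a subunit of eIF2, had 500.4 in granulocytes and 5586, 4986 and 6052. The release factor genes Etf1 and Gspt1 were near level, Etf1 at 7447 in granulocytes against 4062 to 8029 and Gspt1 at 1315 against 1375 to 2040. None was called in HPC, and in LT-HSC 1 was higher and 1 lower.

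Peroxisomal genes had 1 of 12 higher and 3 lower in granulocytes (all genes 8.9% and 12.7%), with a median of −0.40. Pex3, a peroxisome assembly factor, had 527 in granulocytes, against 2250 (HPC), 1102 (LT-HSC) and 2805 (ST-HSC), and Hsd17b4, an enzyme of peroxisomal beta-oxidation, had 739 in granulocytes and 2440, 2827 and 2295. Pex6 and Pex19 were within 2-fold, Pex6 at 763 in granulocytes against 802 to 1137 and Pex19 at 1076 against 703 to 993. None was called in HPC, and in LT-HSC 2 were higher and 2 lower.

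Glutathione and leukotriene genes had 5 of 16 higher and 4 lower in granulocytes (all genes 8.9% and 12.7%), with a median of −0.56. Alox5, which starts leukotriene synthesis, had 9121 in granulocytes, while HPC had 214, LT-HSC 30.0 and ST-HSC 37.9. Mgst1, a microsomal glutathione transferase, had 32405 in granulocytes and 3283, 1352 and 1251. Ltc4s, which makes the leukotriene C4 that Abcc1 exports, was under the floor on all arrays, and Nfe2l2, the oxidative stress factor, had 5226 in granulocytes against 3846 to 4712. In HPC 1 was higher and 1 lower, and likewise in LT-HSC.

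Antigen peptide loading genes had 3 of 8 lower and none higher in granulocytes (all genes 12.7% and 8.9%), with a median of −0.41. The chaperone gene Canx had 2490 in granulocytes, against 14216 in HPC and, among stem cells, 10203 in LT-HSC and 12939 in ST-HSC, and the peptide-trimming gene Erap1 had 153 in granulocytes and 621, 689 and 785. Psmb8 and B2m were near level, Psmb8 at 2176 in granulocytes against 1594 to 2293 and B2m at 19744 against 13340 to 16029. None was called in HPC or LT-HSC. Cobalamin genes had 1 of 8 higher and none lower in granulocytes (all genes 8.9% and 12.7%), with a median of −0.97. Tcn2, the cobalamin carrier protein, had 17908 in granulocytes and 3176, 1959 and 2541, and Lmbrd1, which works with Abcd4 in the lysosome, had 4340 in granulocytes and 2080, 2183 and 670. Mmadhc had 3555 in granulocytes against 3421 to 3834 and Mmut 356 against 474 to 1055. None was called in HPC, and in LT-HSC 3 were higher and 1 lower.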

How the data were processed

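Per the labels' protocols, total RNA of 50 to 200 sorted cells per population was amplified in 2 rounds and labelled with biotin. The authors deposited linear intensity values, 1 for each probe set. Which program summarised the probes, and whether it made detection calls, is not given in the sources used here. Their trimmed mean, leaving out 2% at each end, was 500.0 on every array, so the values were used as scaled by the authors. The arrays hold 45101 probe sets, of which 34945 had 1 symbol, 932 several and 9160 none used here, beside 64 controls. All 45 members were found in RefSeq by Entrez number under the same symbol.

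Values under the floor of 120.1 were set to it before log2. Each gene was given the smallest of its log2 differences from the arrays compared, or 0 where signs differed. Members and lists were chosen with earlier results of these data known. Every member is named, and the 4 signals are given for those that reached the 75th percentile of an array and differed 2-fold, and for even ones. Members of pathway lists were named by the 2 largest and 2 smallest differences of granulocytes. The procedure was tested on simulated data. Promoters came from RefSeq's GRCm38.p6 table. The work used pandas 2.3.3 and numpy 2.4.6 in Python 3.11.15, and figures matplotlib 3.10.9.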

Additional observations from a re-analysis of the deposited data

How the results depend on the processing

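The 6 counts and the 19 called gene differences were recomputed under 9 alternatives, with other scalings, floors, probe sets or a filter on dim genes. Of 163 gene values, 136 moved by less than the probe set SD, 27 moved further and none changed sign. With the floor at the 75th percentile (431.3), 4 genes were lower in granulocytes, since Abca1, Abcb1b, Abcb6 and Abcc4 lost the call. With only genes above the floor on all arrays compared, 1 was higher and 4 lower in granulocytes, because fewer genes were counted. With an offset of 50 in place of the floor, 5 were higher and 1 lower in HPC, and 3 lower in LT-HSC. In LT-HSC 2 were lower with arrays at an equal 75th percentile, and 2 with the median over probe sets, and the cause was not tested. The stricter floor also took Abcf3 in LT-HSC to 0.81 and Abcb8 in HPC to 0. Over all genes, the share of lower among called genes in granulocytes was 58.9%, against 47.6% after scaling to the 75th percentile and 81.5% after scaling to the hybridization controls, which moved the median of all genes by −0.12. For HPC it was 56.0% against 41.2% after scaling to the 75th percentile, and for LT-HSC 42.6% against 28.5% after scaling to the hybridization controls. No paired analysis was possible because each population has 1 array.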

Other observations

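Abcc5 had 10 probe sets, and of the 6 others that passed the floor somewhere in the granulocyte comparison 3 had the direction of the brightest, 2 the opposite and 1 neither. The probe set 1418043_at had 806 in granulocytes, against 48.7 (HPC), 450 (LT-HSC) and 567 (ST-HSC), while 1435684_at had 110 in granulocytes and 500, 651 and 291. The evenness of Abcc5 in the brightest probe set is thus not shared by all of them.

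Abcb10 was within 2-fold by its brightest probe set, but 2 others were higher in granulocytes. The probe set 1416403_at had 565 in granulocytes, while HPC had 125, LT-HSC 154 and ST-HSC 129, and 1454265_a_at had 171 in granulocytes against 20.4 to 47.2. These probe sets were chosen after their values were seen, and the cause of their disagreement was not tested.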
